A study of Mus musculus with 20 samples.

Results

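The endothelin system was described in RNA sequencing of mouse pancreatic islets through 6 genes, namely the ligand genes Edn3 and Edn1, the receptor genes Ednra and Ednrb, and the converting enzyme genes Ece1 and Ece2. The 6 were taken by symbol from a table of 26211 genes, and each symbol matched 1 Ensembl identifier. Edn3 was chosen by its normalized read counts in these same libraries, which were already known to differ between the 2 genotypes. The 5 others were added by name as its partner genes. The genotype difference of Edn3 is therefore given as a description with no test. Islets of P2Y14-knockout mice (10 libraries) were set against islets of wildtype (wild-type) mice (10 libraries), both of the strain C57BL/6 x 129S6. The receptor P2Y14, encoded by P2ry14, signals through G proteins when UDP-glucose or UDP binds, and by its title the study concerned insulin release and smooth muscle. All islets were hand-picked after enzyme digestion of the pancreas and cultured overnight. Neither the age of the mice nor the design of the knockout allele is given in the sources used here. Nothing in the labels says that each library came from its own mouse, so p-values measure the spread between these libraries.

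Endothelins are short peptides cut from larger precursors, first by furin-type proteases and then by the membrane metalloproteases ECE1 and ECE2. Endothelin-1, made mainly by vascular endothelium, constricts vessels through the ETA receptor (Ednra) on smooth muscle, and the ETB receptor (Ednrb) on endothelium clears the peptide and relaxes vessels. Endothelin-3 binds ETB with high affinity and ETA weakly, and is known above all for guiding neural crest cells that form enteric neurons and melanocytes. Both receptors couple to Gq and other G proteins and raise intracellular calcium through phospholipase C beta and IP3 receptors.

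The stretches that encode the mature peptides are shown because they separate the 2 ligand transcripts whose levels are reported. They were read 5′ to 3′ from the longest open reading frame of GENCODE M21 transcripts of Edn3 (chromosome 2, plus strand) and Edn1 (chromosome 13, plus strand), and capitals mark the bases that differ.
Edn3: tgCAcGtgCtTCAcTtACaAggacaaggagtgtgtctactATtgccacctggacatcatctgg
Edn1: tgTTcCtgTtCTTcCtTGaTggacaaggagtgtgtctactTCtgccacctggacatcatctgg
Of the 63 bases, 50 were the same, and of the 21 encoded residues 15 were the same. The differing bases lay in the first part of the peptide and at 1 later codon, whereas the closing codons were shared.

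The 250 bases upstream of the Edn3 start are shown because Edn3 was the member that differed most between genotypes. This is the plus strand of chr2:174760369-174760618 in GRCm38.p6, from RefSeq, and capitals mark the E-boxes (CANNTG), the sites that basic helix-loop-helix factors bind.
Edn3 upstream: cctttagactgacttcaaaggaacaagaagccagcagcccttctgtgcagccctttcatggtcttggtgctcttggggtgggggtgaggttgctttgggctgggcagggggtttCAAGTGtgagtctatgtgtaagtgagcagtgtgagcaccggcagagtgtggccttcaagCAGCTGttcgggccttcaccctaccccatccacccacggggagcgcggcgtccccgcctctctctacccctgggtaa
The window held 2 E-boxes, and 66.2% of 32851 promoter windows of this length held at least 1 on either strand. Other motifs searched on both strands did not occur in this window. These were the TATA box, spelled TATAAA, which 12.4% of all windows held, and the AP-1 motif, spelled TGANTCA, which 6.75% held. The GATA motif was spelled AGATAA and was held by 9.99% of windows. The core of the hypoxia response element was spelled ACGTG and was held by 16.6%, and the GC box was spelled GGGCGG and was held by 32.7%. Some motifs can overlap one another, and a match or its absence describes these letters alone.

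Reads over genes ranged from 34520628 to 199847246 per library, and deeper libraries carry less counting error for low genes such as Edn1. The transcript of the deleted receptor, P2ry14, had a median of 44.8 normalized reads (range 0 to 114) in knockout libraries and 118 (79.7 to 262) in wild-type libraries. Of the knockout libraries, 8 lay below all wild-type libraries, while replicates 2 and 10 overlapped with them. P2ry14 had a log2 fold change of −1.97 and was not called, since its adjusted p by limma, a linear model fitted to each gene, was 0.244 and the threshold was 0.05. It did pass with DESeq2 (adjusted p = 0.0144), with the acinar markers as a covariate (adjusted p = 0.0385 by limma) and without knockout replicate 5, at 0 reads (adjusted p = 0.0283 by limma). The labelled tissue matched its markers, as the 13 beta cell markers listed took 13.5% to 44.1% of all normalized reads in knockout and 18.4% to 40.9% in wild-type libraries. Acinar markers, of the exocrine pancreas, took 3.31% to 15.5% in knockout and 3.07% to 16.3% in wild-type libraries. Neither the labels nor the column names give a batch.

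Edn3 (ENSMUSG00000027524) was lower in every knockout library than in any wild-type library. In knockout islets its normalized read count, a read count divided by a size factor of its library, was 224 at the lowest, 562 at the median and 997 at the highest. In wild-type islets it was 1069 at the lowest, 1615 at the median and 2395 at the highest. The 2 groups therefore did not overlap, although the highest knockout library (replicate 6, at 997) came close to the lowest wild-type library (number 19, at 1069). Knockout replicate 10 had the lowest value, 224, next to replicates 3 and 8 at 343 and 366. The means were 571 ± 242 in knockout and 1602 ± 358 in wild-type (SD, n = 10 each), a ratio of 0.356. On the scale of log2(value + 1), on which all fold changes are given, the difference was −1.58, and it was −1.69 without knockout replicate 6 and −1.45 without knockout replicate 10. It was −1.64 without knockout replicate 2, which had the most P2ry14 reads of its genotype. The values rest on 120 to 1554 reads per knockout library and 960 to 3660 reads per wild-type library. Over all 17482 genes tested, 4 were lower in knockout without overlap, which is 0.0229%, and 6 did not overlap in either direction, which is 0.0343%. Edn3 was among both by the way it was chosen. In these bulk libraries, fewer Edn3-expressing cells and less Edn3 RNA per cell cannot be told apart.

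**Figure D1:**
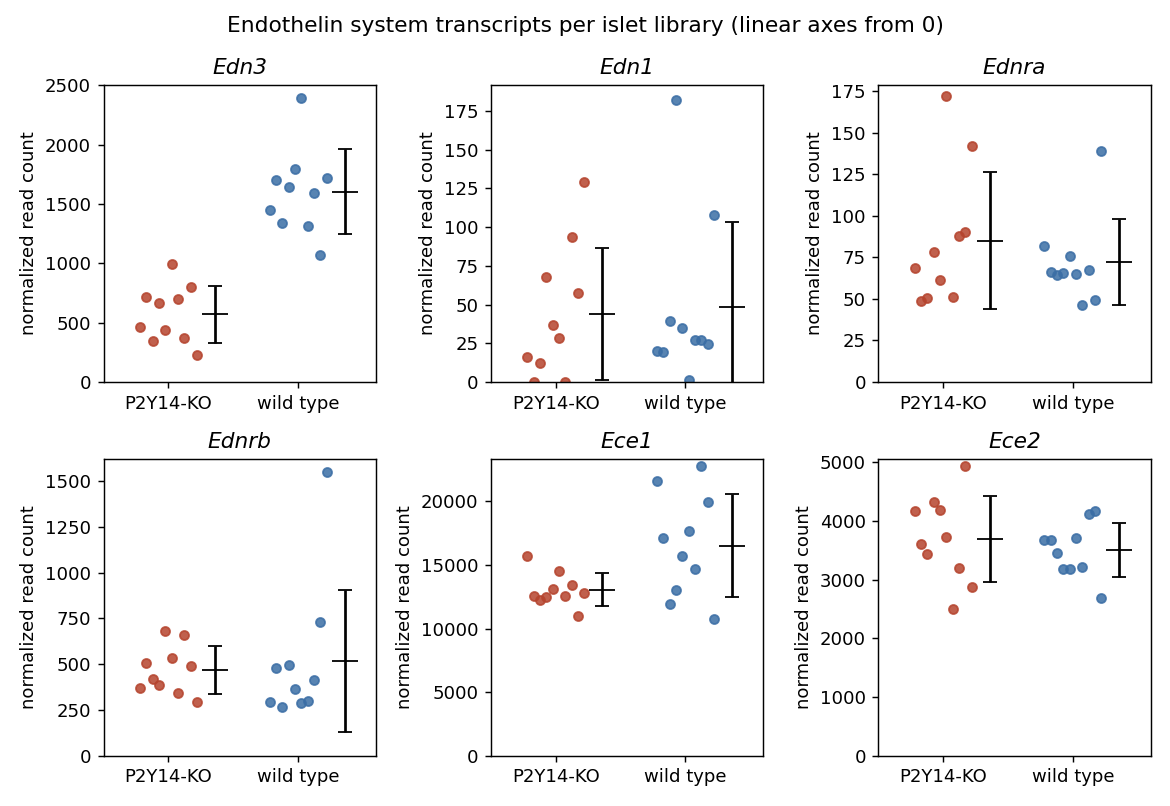
Normalized read counts of the 6 genes in each library (points), with the mean and SD of each genotype (black, n = 10 each), on linear axes that start at 0, where the lower bar of Edn1 in wild-type libraries ends. The Edn3 points of knockout libraries, 224 to 997, all lie below those of wild-type libraries, 1069 to 2395, whereas the points of the 5 other genes overlap between genotypes.

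Edn3 also varied more among knockout than among wild-type libraries on the log scale. Its SD of log2 values was 0.66 in knockout and 0.31 in wild-type. Over 4614 genes with means between 500 and 2000, the median SD was 0.34 in knockout and 0.32 in wild-type. The wild-type spread of Edn3 was thus near that of genes at its level, and the knockout spread was above it, a difference given here without a test.

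Edn1, the gene of the vasoconstrictor endothelin-1, was low in islets of both genotypes and did not pass the test. Its normalized read count was 0 at the lowest, 32.6 at the median and 129 at the highest in knockout libraries. In wild-type libraries it was 1.55 at the lowest, 27.1 at the median and 182 at the highest. Knockout replicates 2 and 7 had 0 reads, which allows up to 2.91 and 6.11 normalized reads there for counting error alone. At the other end, knockout replicate 10 and wild-type libraries 14 and 20 exceeded 100. The log2 fold change was −0.56 (SE 0.88, 95% interval −2.38 to 1.26, adjusted p = 0.880 by limma), and 6 of 10 knockout libraries lay below the wild-type mean. The value leaned on the libraries near 0. It was −0.078 without knockout replicate 2 or 7, −0.96 without wild-type library 16, −0.16 with a pseudocount of 10, −0.12 with edgeR and −0.13 with DESeq2. It was −1.24 with the alpha cell markers as a covariate and 2.32 with the delta and PP cell markers, neither past the threshold (adjusted p = 0.909 and 0.372 by limma). The mean level of the delta and PP markers did not overlap between genotypes, so a fit with it separates marker level and genotype poorly. Edn2, the third ligand gene of the family, had at most 12 reads in any library and was not tested.

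Ednrb, the receptor gene for which endothelin-3 is a ligand of high affinity, overlapped widely between genotypes. It had 294, 454 and 683 normalized reads at the lowest, median and highest in knockout libraries, and 266, 390 and 1550 in wild-type libraries. The highest value belonged to wild-type library 20, and the next highest in that genotype was 728 in library 19. The log2 fold change was 0.035 (SE 0.26, 95% interval −0.51 to 0.58, adjusted p = 0.980 by limma). It was 0.24 without wild-type library 20 and 0.12 without wild-type library 19, and it had the opposite sign with edgeR (−0.14) and DESeq2 (−0.15). Wild-type library 20 also had the highest summed levels in its genotype of the endothelial (78024), Schwann cell (6385) and duct (56953) marker lists, against medians of 59279, 4172 and 28031 over the wild-type libraries. By mean log2 level, library 20 lay below library 14 for the endothelial list, at 11.54 against 11.65. Over the 10 wild-type libraries, Ednrb was set against the mean log2 levels of the endothelial, Schwann cell and duct lists. Pearson's r was 0.12, 0.15 and −0.036 (permutation adjusted p = 0.947, 0.944 and 0.967). Without the 2 libraries farthest from the median of the list, r was 0.46, 0.083 and 0.56. The libraries left out were 19 and 16, 19 and 20, and 19 and 12. Only the Schwann cell value is therefore without library 20. With the mesenchymal list, whose mean log2 level was highest in library 20 (10.52), r was 0.13 (permutation adjusted p = 0.947). It was 0.65 without the 2 farthest libraries, which did not include library 20. With the alpha list r was −0.68 (permutation adjusted p = 0.176), and −0.81 without the 2 farthest. The part of any of these cells in the Ednrb level of library 20 was otherwise not tested.

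Ednra, the receptor gene of vascular smooth muscle, was low and also overlapped. It had 48.5, 73.2 and 172 normalized reads at the lowest, median and highest in knockout libraries, and 46.5, 65.8 and 139 in wild-type libraries. Knockout replicates 6 and 10 and wild-type library 20 stood above 130, and all other libraries were at 90.1 or below. The log2 fold change was 0.17 (SE 0.24, 95% interval −0.33 to 0.67, adjusted p = 0.863 by limma). It ran from 0.043 without knockout replicate 6 to 0.28 without wild-type library 20, and was 0.074 without knockout replicate 10. With the delta and PP cell markers as a covariate, whose level did not overlap between genotypes, it was 0.91 (adjusted p = 0.278 by limma). Ednra lies within the span of 4933431K23Rik on the opposite strand, and as the library kit does not mark strand, reads of the 2 genes cannot be told apart where they overlap.

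Ece1, which encodes the main endothelin-converting enzyme, was the most abundant member. It had 10957, 12701 and 15695 normalized reads at the lowest, median and highest in knockout libraries, and 10735, 16419 and 22756 in wild-type libraries. All 10 knockout libraries lay below the wild-type mean of 16522, yet the wild-type range covered the knockout range. The log2 fold change was −0.31 (SE 0.12, 95% interval −0.56 to −0.051), which had an unadjusted p of 0.0211 and did not pass the test over all genes (adjusted p = 0.471 by limma). Its sign held in each of the 20 fits that left out 1 library, between −0.37 and −0.25. The spread differed in size, with an SD of log2 values of 0.14 in knockout and 0.36 in wild-type libraries, without a test. The gene Gm13012 overlaps Ece1 on the opposite strand, where reads cannot be assigned to either.

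Ece2, the second converting enzyme gene, differed by less than the spread between libraries. It had 2508, 3662 and 4941 normalized reads at the lowest, median and highest in knockout libraries, and 2695, 3571 and 4164 in wild-type libraries. The log2 fold change was 0.060 (SE 0.11, 95% interval −0.17 to 0.29, adjusted p = 0.903 by limma), from 0.011 without knockout replicate 9 to 0.12 without knockout replicate 7.

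All 6 members passed the filter of a mean of at least 10 normalized reads. Apart from Edn3, 0 of 5 passed the adjusted p of 0.05 by limma, and also 0 of 5 by edgeR and by DESeq2, while 1 of 5 (Ece1) had an unadjusted p under 0.05 by each tool, as did 8.94% of all genes tested by limma. Over all 17482 genes tested, 49 passed by limma, or 0.28%, with 21 lower in knockout (0.12%) and 28 higher (0.16%). That Edn3 was among the 21 follows from its choice.

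**Figure D2:**
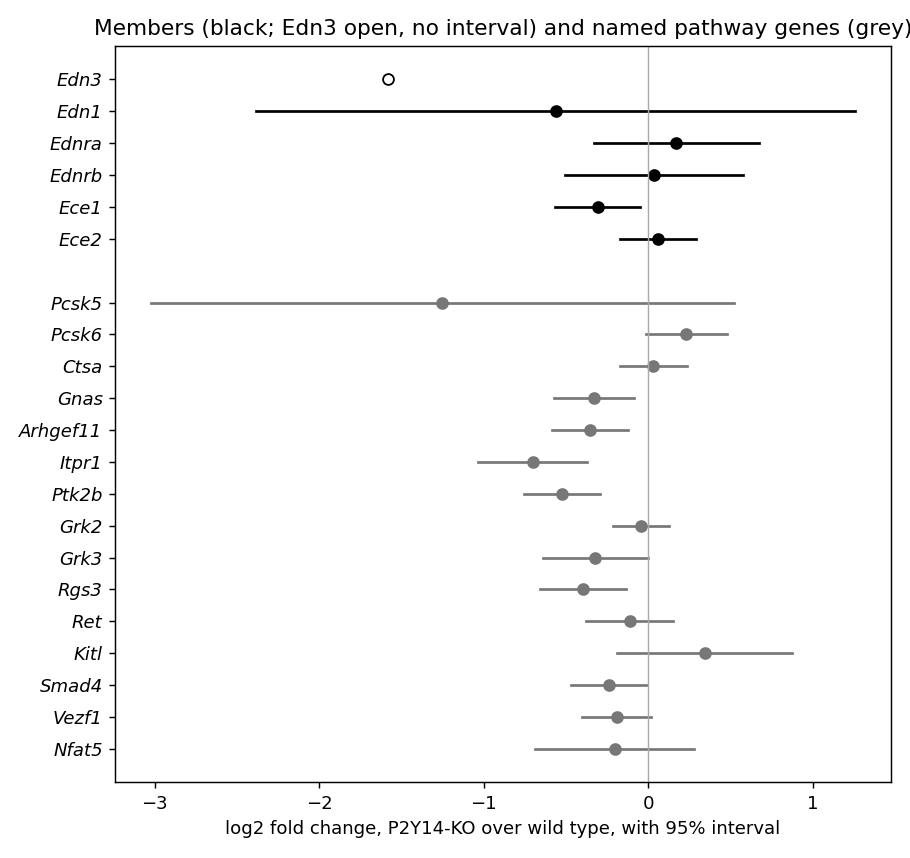
Log2 fold changes of knockout over wild-type islets by limma, with 95% intervals, for the 6 members (black, Edn3 as an open point without an interval because it was chosen for this difference) and for the named genes of the pathway list (grey). Edn3 is at −1.58, the other members lie between −0.56 and 0.17, and among pathway genes Itpr1 (−0.70) and Ptk2b (−0.52) lie lowest apart from the low and widely spread Pcsk5 (−1.25).

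Levels of different genes were compared per kilobase of exons. Per kilobase, the mean order over all libraries was Ece1, Ece2, Edn3, Ednrb, Edn1 and Ednra. Ece1 exceeded Ece2 in every library, with a median ratio of 3.53 in knockout and 4.54 in wild-type islets. Edn3 exceeded Ednrb in 6 of 10 knockout libraries and in 10 of 10 wild-type libraries, with median ratios of 1.38 and 4.29, so these neighbours were not separated beyond their spread in knockout islets. Edn3 per kilobase was 139 ± 58.7 in knockout and 389 ± 87.1 in wild-type (SD, n = 10 each), and Ednrb per kilobase was 110 ± 30.8 and 121 ± 91.1. Edn3 exceeded Edn1 per kilobase by a median factor of 6.70 in the 8 knockout libraries with Edn1 reads and of 25.9 in wild-type libraries. In knockout replicate 10 alone it was lower, at 0.904 times Edn1. Ednrb exceeded Ednra by a median factor of 7.78 in knockout and 8.03 in wild-type libraries. Edn1 and Ednra were not separated, with Edn1 above Ednra in 5 of 10 knockout and 7 of 10 wild-type libraries. Their order in knockout means turned round when the longest coding transcript was used as the length, at 20.6 for Edn1 and 23.4 for Ednra.

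**Figure D3:**
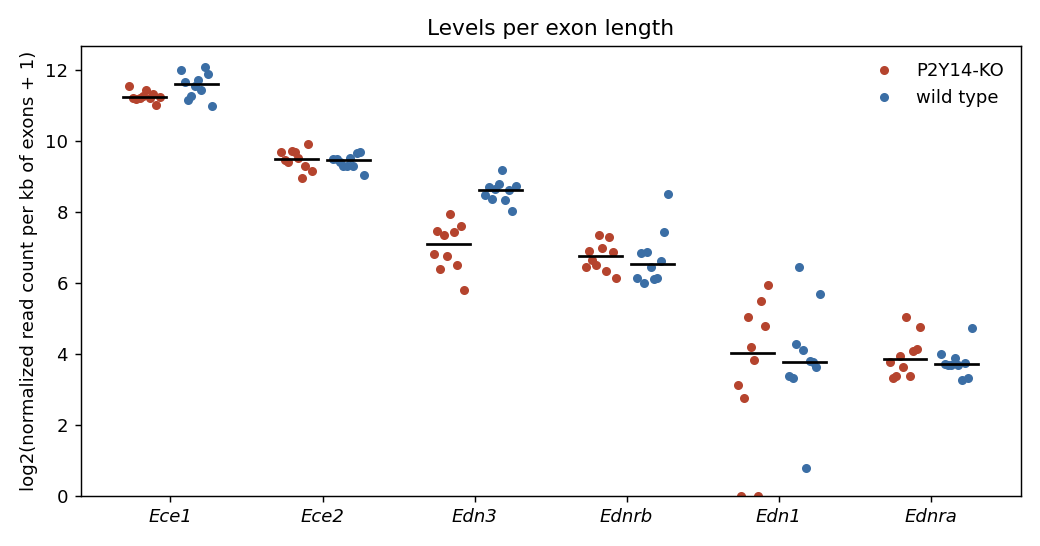
Levels per kilobase of exons, as log2(normalized read count per kilobase + 1), for each library of knockout and wild-type islets, with medians as black lines. Ece1 stands highest in both genotypes, Edn3 lies near Ednrb in knockout and above it in each wild-type library, and Edn1 and Ednra overlap at the bottom.

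A list of other genes of endothelin processing, receptor signalling and ligand regulation had 1 call. Of its 86 genes, 85 were in the table and 75 were tested, of which 25 were above 0 and 50 below it in log2 fold change. Their median was −0.054, against −0.0022 over all genes tested. By limma 0 rose and 1 fell, namely Ptk2b, which encodes the calcium-activated tyrosine kinase PYK2 downstream of Gq-coupled receptors. By limma no list gene was higher at an unadjusted p under 0.05 and 10 were lower, which is 13.3% of the list, against 8.94% of all genes tested in either direction. On this list edgeR called 0, and DESeq2 called 2 (Ptk2b and Itpr1) of its 137 over all genes. Ptk2b had 3005, 4072 and 5603 normalized reads at the lowest, median and highest in knockout libraries, and 4689, 6035 and 7263 in wild-type libraries. In log2, Ptk2b fell by 0.52 (SE 0.11), and limma gave an adjusted p = 0.0413. The call was lost in 15 of the 20 fits without 1 library, where the adjusted p by limma ran from 0.0141 to 0.0948. It held when knockout replicate 1, 5 or 6 was left out, and when wild-type library 12 or 20 was. Among edgeR, DESeq2 and the other settings tried, the adjusted p ran from 0.00339 to 0.538.

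Among receptor effectors, 16 of 19 tested genes had a negative fold change, as did 8818 of all 17482 genes, and 1 of the 19 (Ptk2b) passed limma's test. Itpr1, an IP3 receptor that releases calcium from the endoplasmic reticulum, averaged 12212 ± 3491 in knockout and 19711 ± 4634 in wild-type (SD, n = 10 each), with a log2 fold change of −0.70 that did not pass (adjusted p = 0.0662 by limma). Itpr1 did pass with the acinar or endothelial markers as a covariate (adjusted p = 0.0250 and 0.0399 by limma) and with DESeq2 (adjusted p = 0.00858). It also passed without knockout replicate 1 or 5 or without wild-type library 14 (adjusted p = 0.0463, 0.0268 and 0.0294 by limma). The groups of Itpr1 overlapped, from 8467 to 18835 in knockout and from 12184 to 25950 in wild-type. Gnas, which encodes the stimulatory G protein alpha subunit, had a log2 fold change of −0.33 that did not pass (adjusted p = 0.398 by limma). Of 11 genes of receptor desensitization, 6 had a positive and 5 a negative value. The regulator of G protein signalling gene Rgs3 was at −0.40, and the receptor kinase genes Grk3 and Grk2 were at −0.32 and −0.044, none of them past limma's test.

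Of the 12 genes of ligand processing, 7 were tested and 4 had a positive value. The proprotein convertase genes were at 0.23 (Pcsk6) and −1.25 (Pcsk5, SE 0.85), and Ctsa, which encodes the carboxypeptidase cathepsin A, was at 0.030, none of them past limma's test. None of the 8 tested genes that work with Edn3 in neural crest passed limma's test. Ret, the receptor tyrosine kinase gene of enteric neuron precursors, had a log2 fold change of −0.11, and Kitl, the ligand gene of the melanocyte receptor KIT, one of 0.34. Of 13 regulators of ligand genes, 6 had a positive value, with the signal transducer gene Smad4 at −0.24, the transcription factor gene Vezf1 at −0.19 and the osmotic response gene Nfat5 at −0.20, and none passed limma's test.

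The genes that flank Edn3 on chromosome 2 were examined with 5 tested protein-coding genes on each side, in the gene order of GENCODE M21. Tubb1, the gene of a beta tubulin of platelets and megakaryocytes, was the third tested gene before Edn3. It had 0, 51.0 and 183 normalized reads at the lowest, median and highest in knockout libraries, and 94.4, 245 and 415 in wild-type libraries. The Tubb1 difference was −2.41 in log2 (SE 0.73, adjusted p = 0.258 by limma) and the groups overlapped, with knockout replicates 4, 5, 6 and 9 above the lowest wild-type library. The ratio of its means was 0.355, so the log2 value leans on the libraries near 0, and without knockout replicate 10, at 0 reads, it was −1.82. The 2 genes between them had values of 0.63 for Atp5e, an ATP synthase subunit gene (adjusted p = 0.536 by limma), and 0.061 for Prelid3b (adjusted p = 0.917 by limma). Farther out, Ctsz, the gene of the protease cathepsin Z, was at −0.36 and Nelfcd, a subunit gene of the NELF elongation complex, at −0.18. On the other side the genes Gm14399, Gm14443, Zfp973, Gm14295 and Gm14410 had means under 70 normalized reads in both genotypes and values between −0.51 and 0.80. None of the 10 flanking genes passed limma's test. Gnas lay on the same side as Tubb1, with 6 tested protein-coding genes between it and Edn3.

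Tubb1 was also among the genes whose pattern over libraries was most like that of Edn3. Likeness was Pearson's r over the 20 deviations of log2 values from the genotype mean, so it does not use the difference between genotypes, and it was ranked over 13948 genes with a mean of at least 50. The highest r belonged to Idh3a, a subunit gene of mitochondrial isocitrate dehydrogenase (0.79), Tubb1 (0.79) and Coq2, a gene of coenzyme Q synthesis (0.78). They were followed by Wdr76, a WD repeat gene also on chromosome 2 (0.76), and the pseudogenes Ywhaq-ps3 (0.75) and Pgam1-ps2 (0.75), whose reads may belong to close copies. Tubb1 thus ranked 2, while Ctsz and Atp5e, the tested genes on its 2 sides, ranked 2640 and 8797. Prelid3b and Gm14399, on the 2 sides of Edn3, ranked 615 and 626. For Tubb1, r with Edn3 was 0.80 in knockout and 0.73 in wild-type libraries, and 0.64 and 0.50 without the 2 libraries farthest from the Tubb1 median. For Wdr76, r was 0.86 in knockout and 0.061 in wild-type libraries. Wdr76 had 44.9 to 295 normalized reads in knockout and 247 to 428 in wild-type libraries, and its log2 fold change of −1.06 did not pass (adjusted p = 0.167 by limma). These likeness values are a ranking over libraries that share depth and composition, with no test.

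**Figure D4:**
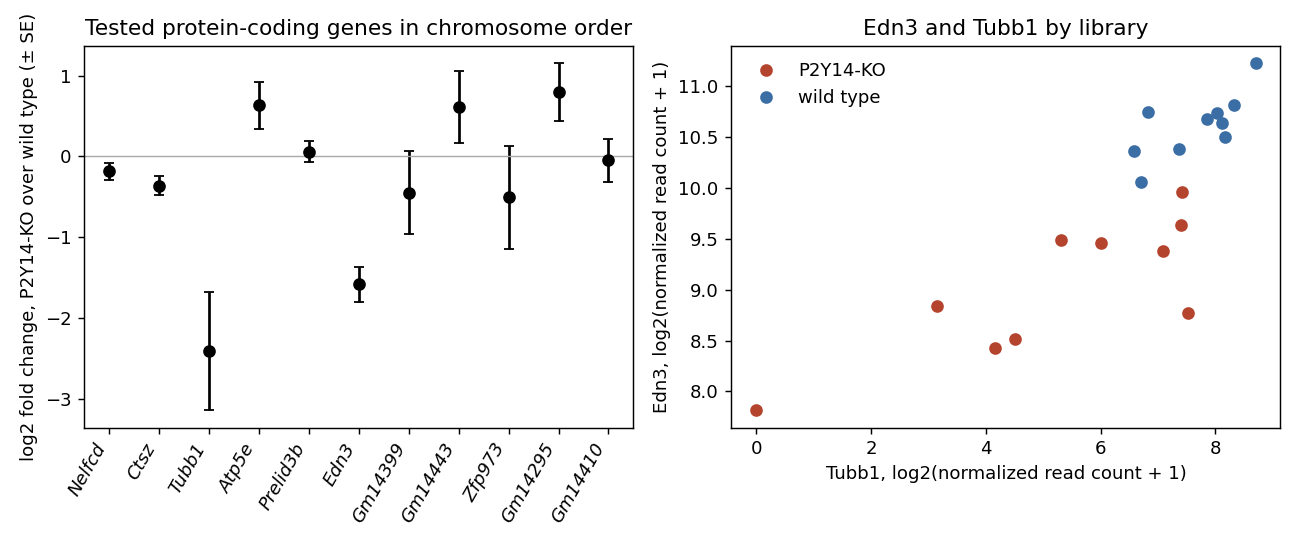
Left, log2 fold changes of knockout over wild-type islets (± SE) for Edn3 and the 5 tested protein-coding genes on each side in chromosome order. Right, Edn3 against Tubb1 in each library, as log2(normalized read count + 1). Tubb1 (−2.41) and Edn3 (−1.58) have the lowest values among these genes, and libraries with more Tubb1 tended to have more Edn3 within each genotype (r of 0.80 in knockout and 0.73 in wild-type).

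Between members, levels were compared over the 10 libraries of each genotype. Of 30 relations, 0 passed a permutation test after Benjamini-Hochberg adjustment by Pearson's r or by Spearman's rho, and 2 had an unadjusted p under 0.05 by r. The largest was Ece1 with Ece2 in wild-type libraries, with r = 0.85 and rho = 0.79 (permutation p = 0.00175 and 0.00898, adjusted p = 0.0525 and 0.162), and r = 0.69 without the 2 libraries farthest from the Ece1 median. With TMM factors, another normalization, this pair did pass by r (r = 0.86, permutation adjusted p = 0.0351). In knockout libraries the pair Edn1 and Ednra had r = 0.66 and rho = 0.74 (permutation p = 0.0357 and 0.0192, adjusted p = 0.530 and 0.162), and r = 0.49 without the 2 farthest. Edn3 had r with Ednrb of 0.23 in knockout and −0.078 in wild-type libraries, and with Ece1 of −0.079 and −0.085, all with adjusted p of at least 0.784 by permutation.

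Marker lists of other cells were set against each member in the same way, with 108 relations in all, of which 4 passed by r and 5 by rho. In knockout libraries Edn1 was high where endothelial markers were high (r = 0.91, rho = 0.94, permutation p = 9e-05 and 0.00021, adjusted p = 0.00486 and 0.0192). It was likewise high with mesenchymal markers (r = 0.90, rho = 0.91, permutation p = 8e-05 and 0.00054, adjusted p = 0.00486 and 0.0192) and with duct markers (r = 0.88, rho = 0.91, permutation p = 0.00021 and 0.00064, adjusted p = 0.00756 and 0.0192). Without the 2 libraries farthest from the median of the list, r was 0.88, 0.85 and 0.78. The 3 lists were not independent, as knockout replicate 10 was highest and knockout replicate 7 lowest of the knockout libraries in each. In wild-type libraries the same 3 relations had r of 0.70, 0.64 and 0.45 (permutation adjusted p of 0.176 or more) and rho of 0.79, 0.75 and 0.66 (permutation adjusted p = 0.0700, 0.114 and 0.218), and did not pass. Without the 2 farthest libraries, r in wild-type was 0.85, 0.85 and 0.74, close to the values of knockout libraries. The difference between genotypes was not tested. Ednra in knockout libraries went with macrophage markers (r = 0.85, rho = 0.90, permutation p = 0.00166 and 0.00071, adjusted p = 0.0448 and 0.0192), with r = 0.77 without the 2 farthest. Ednra also went with delta and PP cell markers there by rho alone (r = 0.77, rho = 0.89, permutation p = 0.00962 and 0.00104, adjusted p = 0.0944 and 0.0225). Short of passing in knockout libraries, Edn1 had r of 0.84 with delta and PP and 0.78 with macrophage markers (permutation adjusted p = 0.0526 and 0.0599). Ednra likewise had r of 0.75 with mesenchymal and with duct markers (permutation adjusted p = 0.112 for each). Also short of passing, in wild-type libraries, Ece1 and Ece2 each had r of −0.82 with Schwann cell markers (permutation adjusted p = 0.0526 and 0.0599). With beta cell markers there, Ece1 had r of 0.81 and Edn1 of −0.77 (permutation adjusted p = 0.0672 for each). The share of all genes that pass against these lists was not computed. The 15 endothelial markers had summed levels of 42119 to 111107 in knockout and 46139 to 78024 in wild-type libraries, with 7 positive and 8 negative fold changes and none past limma's test, and none was at 0 in all libraries.

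**Figure D5:**
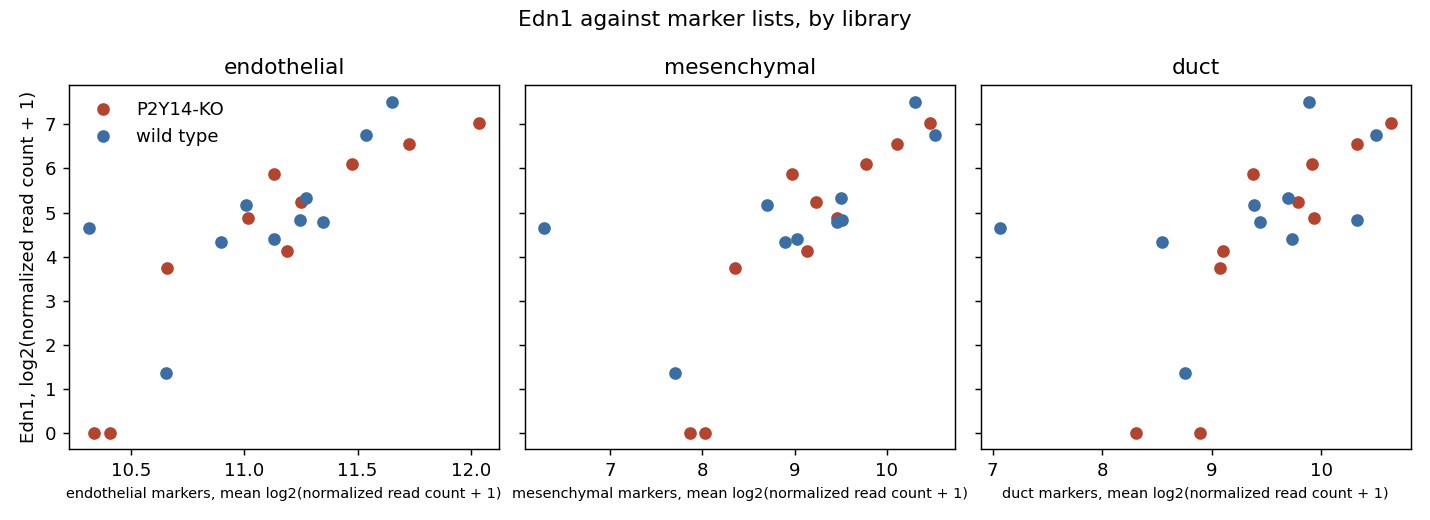
Edn1, as log2(normalized read count + 1), against the mean log2 level of endothelial, mesenchymal and duct markers in each knockout and wild-type library. In knockout libraries r was 0.91, 0.90 and 0.88, and the 2 knockout libraries without Edn1 reads lie near the low end of each list.

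Markers of endocrine cells mostly had negative fold changes, as did Edn3, whereas acinar markers (16 of 18) and macrophage markers (11 of 14, median log2 of 0.39) mostly had positive ones. Of 13 beta cell markers, 9 were below 0, with a median log2 of −0.19, and none of these 3 lists had a member past limma's test. Of all genes tested, 50.4% were below 0. The summed level of the beta cell markers ran from 15515639 to 38270779 in knockout and from 14881551 to 37097543 in wild-type libraries. Its median was higher in knockout, at 28675625 against 23362402. As a share of all normalized reads, the median was 27.8% in knockout and 27.2% in wild-type libraries. Of 8 tested alpha cell markers, 6 were below 0 in log2 fold change and none passed limma's test, with a summed level of 546524 to 1840263 in knockout and 1204852 to 2293492 in wild-type libraries. Of 8 delta and PP cell markers, 8 were below 0 and 1 (Ptprz1) passed limma's test, with a summed level of 124703 to 630314 in knockout and 256510 to 561805 in wild-type libraries. None of these markers was at 0 in all libraries. The difference of Edn3 was −1.25 with the mean level of the alpha markers as a covariate and −1.68 with that of the delta and PP markers. It was −1.58 with the endothelial or with the acinar markers as a covariate. The mean log2 level of the delta and PP markers did not overlap between genotypes (9.88 to 11.13 in knockout, 11.16 to 11.65 in wild-type libraries). A fit with that covariate therefore separates marker level and genotype poorly, and its value is not a usable adjusted difference. The part of these cells in the Edn3 difference was otherwise not tested. Within a genotype, Edn3 had r with the alpha markers of 0.43 in knockout and 0.61 in wild-type libraries (rho = 0.52 and 0.48, permutation p of r = 0.212 and 0.0590, adjusted p = 0.510 and 0.277), and 0.28 and 0.15 without the 2 libraries farthest from the median of the list. With the delta and PP markers, r was −0.083 and −0.062. In knockout libraries, Edn3 had r of −0.56 with endothelial, −0.55 with Schwann cell and 0.53 with beta cell markers. It had r of −0.44 there with mesenchymal and with duct markers, so the alpha relation was not the largest. In wild-type libraries the same lists, in this order, gave 0.12, 0.35, 0.22, 0.19 and 0.22. None of these passed (permutation adjusted p of at least 0.379).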

How the data were processed

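The 6 members and all gene lists were chosen with earlier results of these data known. The deposited values are normalized read counts, a signal unit of gene reads divided by a DESeq size factor per library, per the file's name and the deposited values. Tools in the submitters' processing notes are DESeq 1.16.0, Cufflinks 1.3.0, TopHat 1.3.3, Bowtie 0.9.9 and FastQC, with build mm9. No counter, strand setting or annotation is stated in the sources used here. The TruSeq v2 kit does not mark strand. Values of each column were whole multiples of 1 step, which returned whole reads for 100% of values within 0.05 reads. Knockout columns carry the numbers of the labels. Wild-type columns are numbered 11 to 20, unlike the labels, and stand for the wild-type group only, with no replicate numbers. GENCODE M21 (GRCm38) named 23950 of 26211 identifiers and gave gene order and exon lengths, which may differ from the annotation used for counting. RefSeq gave the promoter window.

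The main test was limma 3.58.1 (R 4.3.3), with eBayes and a mean trend, on log2(value + 1) for the 17482 genes averaging 10 or more, with genotype as the only term and Benjamini-Hochberg adjustment over all genes tested. limma's step was tested on simulated data. These were drawn for each gene on its own, without shared variation in cell make-up, so the simulation does not cover such variation. Alternatives were pseudocounts of 0.5 and 10, other filters, TMM factors, quantile normalization, robust eBayes, covariates, leaving out each library, and edgeR 4.0.16 and DESeq2 1.42.0 on whole reads. Correlations used 100000 permutations (numpy 2.4.6, Python 3.11.15), two-sided. Genes named were the members, P2ry14, the 5 tested protein-coding genes on each side of Edn3, the 6 genes most like it and, of each part of the pathway list, every gene past the threshold, the 2 with the smallest p and the 1 with the highest mean. Genes under the filter were not tested. Intervals and floors cover counting error only where they come from reads.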

Additional observations from a re-analysis of the deposited data

Results flagged for a closer look

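Among the 37 genes named, in 74 groups of 10 libraries, 8 groups had a highest library whose gap to the next one, as a share of the range, was above Dixon's 95% critical value. Chance passes that value in about 1 of 20 groups of normally distributed values. The values used were linear normalized read counts, so that rate need not hold here. For the members these were Ednrb at 1550 and Ednra at 139 normalized reads, both in wild-type library 20, where the next values were 728 and 81.9. For pathway genes they were Pcsk6 at 2379 in knockout replicate 10, Gnas at 423560 in wild-type library 16, and Grk3 at 3219 in knockout replicate 5. Among the genes near Edn3 or most like it, they were Prelid3b at 2262 in knockout replicate 6, Zfp973 at 32.3 in knockout replicate 5 and Idh3a at 1911 in wild-type library 16. Wild-type library 16 also had the highest Edn3 value, 2395, and the highest Tubb1 value, 415. No explanation of these values was tested.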

How the results depend on the processing

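No paired analysis was possible because the wild-type columns carry the numbers 11 to 20 and not those of the labels, so a replicate block could not be fitted. The difference of Edn3 kept its sign in all 33 alternatives, between −1.69 and −1.25. The count of genes passing was 49, and it was 29 when only genes averaging 100 or more were tested, 82 and 77 with the acinar or endothelial markers as a covariate, and 137 with DESeq2. Covariates added after seeing the data gave 18 genes with the alpha markers and 0 with the delta and PP markers, and the cause was not tested. The mean log2 level of the delta and PP markers did not overlap between genotypes (9.88 to 11.13 in knockout, 11.16 to 11.65 in wild-type libraries). A fit with that covariate therefore separates marker level and genotype poorly. Without 1 library the count ran from 27 to 74. It was 27, 74, 32 and 32 without knockout replicates 4, 6, 8 and 9, and 31 without wild-type library 19. The count of pathway genes passing, 1 in the main test, was 0 with no filter, quantile normalization, edgeR or the alpha or delta and PP markers, and 2 with DESeq2 or the acinar or endothelial markers. Without 1 library it ran from 0 to 2. No member other than Edn3 passed under any of these settings. With TMM factors 1 relation between members passed, against 0 in the main test. It was Ece1 with Ece2 in wild-type libraries (r = 0.86, permutation adjusted p = 0.0351). Signs turned, none of them past the threshold, for Ednrb (−0.14 with edgeR, −0.15 with DESeq2, −0.24 with the alpha markers) and for Edn1 with the delta and PP markers (2.32). They also turned for Ctsa (−0.033), Ret (0.11), Gm14399 (0.36), Gm14410 (0.099) and Pgam1-ps2 (0.051) with the alpha markers, and for Gm14410 with edgeR (0.054) and DESeq2 (0.072). The cause was not tested. Without 1 library Ednrb ran from −0.046 to 0.24, Ctsa from −0.011 to 0.088, Prelid3b from −0.016 to 0.11, Gm14410 from −0.17 to 0.11 and Pgam1-ps2 from −0.090 to 0.025. Of 1212 values of named genes under the alternatives, 1158 kept their sign and their side of the threshold. For Edn3, which was not tested, a value was instead counted as kept by another rule. It had to keep its sign and differ from the main value by less than the pooled SD of its log2 values. Edn1 rests on 0 to 159 reads per library, so counting error is large where its reads are few. Its reads did not follow depth alone. Knockout replicate 2 had 0 Edn1 reads among 118376144 reads over genes, and knockout replicate 5 had 24 among 34520628.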
